A study of Rattus norvegicus with 30 samples.

Results

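Cltrn, Ttc39a, Zdhhc2, Qpct, Ppp2r2b and Slc6a6 are 6 genes picked for large changes in the livers of rat pups given DE71, and none of them is a known enzyme of drug metabolism. They were selected on the pup arrays by gene symbol, as 6 of 14217 genes and 7 of 31042 probe sets measured. In pups given DE71, Cltrn, Ttc39a and Zdhhc2 stood 7.83 to 30.7 times above controls, and Qpct, Ppp2r2b and Slc6a6 stood 1.92 to 7.15 times below them. The pup differences are given as a description, since they chose the genes, and the arrays of adult males are the ones on which the 6 genes were tested. In adult males only Zdhhc2 passed the test among the 6.

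DE71 is a technical product made of polybrominated diphenyl ethers (PBDE), which served as flame retardants. Livers came from Wistar/Han rats in 6 groups of 5, and each group is named here by its sex, age and dose. The PBDE groups were male pups, female pups and adult males at 50 mg/kg, and the matching controls received 0 mg/kg in the corn oil protocol, although the labels call them untreated. Dams were gavaged from gestation day 6 through postnatal day 21, pups were also dosed directly until weaning, and adult males were dosed on into week 13. Pup livers were taken on postnatal day 22 and adult livers at week 13, with each pup from a different dam and each adult from a different dam within its dose. A section of whole liver gave the RNA, so fewer cells of a type and less RNA per cell cannot be told apart.

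Foreign chemicals are known to act on the liver through receptors such as AhR, CAR and PXR, which switch on enzymes of drug metabolism. The 6 genes here belong to other systems: amino acid transport at the cell surface (Cltrn), attachment of palmitate to proteins (Zdhhc2), closure of the amino end of secreted peptides (Qpct), protein phosphatase 2A (Ppp2r2b), taurine uptake (Slc6a6) and a family of repeat proteins with no settled role (Ttc39a). In the textbook liver, taurine is made from cysteine and joined to bile acids before they are secreted.

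The arrays read as labelled liver. The mean level of 11 hepatocyte markers lay between 14.1 and 14.4 on the log2 scale on every array, and Xist was between 10.7 and 12.2 on the 10 arrays labelled female against 3.08 to 3.67 on the 20 labelled male. Cyp1a1, the classical AhR target, was 4.74 ± 0.44 (log2 difference ± SE) higher in PBDE male pups, 5.31 ± 0.44 in PBDE female pups and 6.56 ± 0.44 in PBDE adult males than in their controls. A prefix in the array names splits the arrays into 2 sets of 3 groups. The control pups of both sexes and the PBDE male pups had the first prefix, while PBDE female pups and all adults had the second. The female pup comparison therefore crosses the prefixes, and there dose and prefix cannot be told apart. Adults and male pups also differ in prefix, so differences between them mix age with prefix. The Gapdh control probe set at the 3' end minus that at the 5' end, which grows as RNA is broken or incompletely copied, was 2.09 ± 0.65 in PBDE and 1.61 ± 0.33 in control male pups (SD, n = 5 each, two-sided exact permutation p = 0.198). It was 1.93 ± 0.30 in PBDE and 1.26 ± 0.50 in control female pups (exact p = 0.0397), and 1.17 ± 0.62 in PBDE and 0.62 ± 0.18 in control adults (exact p = 0.0238). With this measure as a covariate in the fit, the log2 difference of the 6 genes ran from -2.51 to 4.58 in male pups, -2.99 to 4.60 in female pups and -0.82 to 1.64 in adults, with no change of direction and, in adults, no change of call. The covariate lowered the count of called probe sets in female pups to 977, against 1315 without it. In male pups it raised the count to 1737, against 1654. It ended some calls of list genes given below and added others, Csad in male pups among them.

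Promoter windows of Cltrn, Ttc39a and Slc6a6 are shown as examples of genes that were higher (Cltrn and Ttc39a) and lower (Slc6a6) in PBDE pups and whose windows held a match to a motif searched. RefSeq windows on the GRCr8 assembly, from 250 bases before to 50 bases after a transcript start, were found for 5 of the 6 genes. The Cltrn window is chrX:34027075-34027374 on the minus strand, the Ttc39a window is chr5:129394044-129394343 on the plus strand, and the Slc6a6 window is chr4:125752252-125752551 on the plus strand. Capitals mark matches to the motifs searched, except single HNF1 half-sites. Sequences run 5′ to 3′ along the gene.
Cltrn: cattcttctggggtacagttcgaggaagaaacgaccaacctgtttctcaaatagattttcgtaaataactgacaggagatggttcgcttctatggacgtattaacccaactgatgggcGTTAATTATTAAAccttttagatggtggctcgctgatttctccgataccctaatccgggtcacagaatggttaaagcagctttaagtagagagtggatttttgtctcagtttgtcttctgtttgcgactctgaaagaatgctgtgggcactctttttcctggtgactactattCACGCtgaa
Ttc39a: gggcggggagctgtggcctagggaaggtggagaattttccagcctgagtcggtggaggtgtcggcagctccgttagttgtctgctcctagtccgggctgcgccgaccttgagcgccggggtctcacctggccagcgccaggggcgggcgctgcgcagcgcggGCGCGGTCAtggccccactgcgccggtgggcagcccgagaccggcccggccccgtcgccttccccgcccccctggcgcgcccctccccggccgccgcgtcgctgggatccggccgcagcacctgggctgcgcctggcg
Slc6a6: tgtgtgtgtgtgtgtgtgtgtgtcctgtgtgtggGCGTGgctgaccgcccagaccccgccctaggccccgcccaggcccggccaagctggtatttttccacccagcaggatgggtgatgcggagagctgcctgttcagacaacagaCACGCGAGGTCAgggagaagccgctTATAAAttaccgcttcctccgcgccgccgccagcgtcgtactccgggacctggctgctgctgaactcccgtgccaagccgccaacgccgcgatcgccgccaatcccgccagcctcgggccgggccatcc
The motifs, searched on both strands, were GCGTG (the core bound by AhR), TGACNNNGC (the antioxidant response core), AGGTCA (the nuclear receptor half-site), TATAAA (the TATA box), GTTAAT (the half-site of HNF1) and the HNF1 palindrome. The palindrome is GTTAAT, any base, and the reverse complement of GTTAAT, with at most 1 mismatch. Matches were frequent for the short motifs: 29.7% of 33469 windows held GCGTG, 12.1% TGACNNNGC, 16.2% AGGTCA, 14.2% TATAAA and 7.45% GTTAAT. The palindrome was found in 47 windows, or 0.14%. The Cltrn window held a palindrome match that begins 132 bases before the start, printed in capitals, and a GCGTG on the minus strand 41 bases after the start. In the Ttc39a window the capitals are an antioxidant response core on the minus strand, 88 bases before the start. In the Slc6a6 window GCGTG stood 216 bases before the start on the plus strand and 104 bases before it on the minus strand. The second of these overlapped an antioxidant response core on the minus strand at 101 bases before the start. That core overlapped an AGGTCA at 98 bases, and TATAAA stood 79 bases before the start. Each of the 3 windows of Ppp2r2b held GCGTG, with 2, 1 and 2 matches, and the Qpct window held no match. A match describes letters in the window and is not evidence that a factor binds there.

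Cltrn, on chromosome X, encodes collectrin, a membrane protein that places neutral amino acid transporters on the surface of kidney tubule cells. Its single probe set read 9.35, 9.14, 8.80, 7.49 and 8.60 in PBDE male pups, against 3.79, 3.73, 3.66, 4.34 and 3.75 in control male pups (log2 intensity per array). It read 9.01, 9.43, 7.81, 9.14 and 9.75 in PBDE female pups, against 4.08, 3.90, 4.20, 3.66 and 4.58 in control female pups. Adult males read 3.64, 3.51, 3.51, 3.72 and 3.57 with PBDE, against 3.57, 3.68, 3.85, 3.80 and 3.50 without it. The 10 PBDE pups were all high, and every control pup and every adult lay below its array's median, which ran from 5.72 to 5.77. Group means were 8.68 ± 0.72 in PBDE and 3.85 ± 0.27 in control male pups, 9.03 ± 0.74 in PBDE and 4.09 ± 0.35 in control female pups, and 3.59 ± 0.09 in PBDE and 3.68 ± 0.15 in control adults (SD, n = 5). The log2 difference was 4.82 in male pups and 4.94 in female pups, a 28.3-fold and a 30.7-fold higher level. Both PBDE pup groups overlapped each other, as did the 4 other groups with their neighbours in the order of levels. In adults the log2 difference was -0.09 ± 0.27 (SE), with limma's 95% interval from -0.65 to 0.46 and an adjusted p of 0.912 (exact permutation p = 0.27). A change of the size seen in pups lies outside that interval. The fit pools the spread of all groups, and the SD was larger in PBDE pups than in adults. The SE, interval and adjusted p therefore rest partly on the pup arrays.

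Collectrin is best known from kidney and pancreatic islets, and markers of other tissues are given beside it. Of 8 measured kidney tubule markers and 9 exocrine pancreas markers, 0 passed the threshold in either pup comparison. Islet markers were not examined. The mean level of the kidney list was 5.32 to 5.49 in PBDE and 5.23 to 5.33 in control male pups, and 5.17 to 5.33 in PBDE and 5.20 to 5.32 in control female pups. These ranges overlap in both sexes. In adults 1 of the 8 kidney markers, Slc12a1, rose (log2 difference 1.51 ± 0.30, adjusted p = 0.00362), and the list's level was 5.72 to 6.22 in PBDE and 5.73 to 5.83 in control adults. The share of all genes called higher in adults was 1.86%. Of the 11 genes listed as amino acid transport partners of collectrin, 6 could be read, and 0 of 6 passed in any comparison. The median log2 difference of those 6 was 0.02 in male pups, 0.00 in female pups and 0.11 in adults, beside 0.02, 0.02 and 0.01 over all genes. Slc6a19, its best known partner, was not analysed here.

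Ttc39a, on chromosome 5, encodes a tetratricopeptide repeat protein. Its single probe set read 7.28, 6.09, 7.67, 6.95 and 7.62 in PBDE male pups, against 3.96, 4.12, 3.92, 3.98 and 3.90 in control male pups. It read 7.94, 7.84, 7.92, 7.19 and 8.17 in PBDE female pups, against 3.89, 3.59, 3.93, 4.18 and 4.00 in control female pups. Adult males read 4.56, 3.63, 4.13, 4.76 and 4.24 with PBDE, against 3.76, 3.92, 3.85, 3.84 and 3.53 without it. The gene was high in all 10 PBDE pups, and in adults 4 of 5 PBDE arrays lay above all 5 controls. Means were 7.12 ± 0.65 in PBDE and 3.98 ± 0.09 in control male pups, and 7.81 ± 0.37 in PBDE and 3.92 ± 0.21 in control female pups. They were 4.26 ± 0.43 in PBDE and 3.78 ± 0.15 in control adults (SD, n = 5). The log2 difference was 3.14 in male and 3.89 in female pups, or 8.84-fold and 14.9-fold. In adults it was 0.48 ± 0.22 (SE, 95% interval 0.04 to 0.93), which did not pass the false discovery rate of 0.05 (adjusted p = 0.253, exact permutation p = 0.0476). The other family members Ttc39b and Ttc39c had log2 differences between -0.04 and 0.35 over the 3 comparisons, and 0 of 2 passed in any of them.

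Zdhhc2, on chromosome 16, encodes an enzyme that attaches palmitate to cysteines of membrane proteins and is best studied at synapses. Its single probe set read 8.78, 9.15, 9.09, 8.99 and 8.67 in PBDE male pups, against 5.97, 5.69, 5.85, 5.90 and 5.82 in control male pups. It read 9.00, 8.80, 8.65, 9.05 and 9.07 in PBDE female pups, against 6.00, 5.83, 5.85, 6.10 and 5.94 in control female pups. Adult males read 8.80, 7.89, 8.04, 7.96 and 8.12 with PBDE, against 6.75, 6.10, 6.52, 7.16 and 6.34 without it. All PBDE arrays lay above all controls at each age and sex, and the gap in adults was 0.73. The 3 higher genes of the 6 were thus separated from controls in both pup comparisons, and Zdhhc2 was the only gene of the 6 to be separated in adults. Group means were 8.94 ± 0.20 in PBDE and 5.85 ± 0.11 in control male pups, 8.91 ± 0.18 in PBDE and 5.95 ± 0.11 in control female pups, and 8.16 ± 0.37 in PBDE and 6.57 ± 0.41 in control adults. The log2 difference was 3.09 and 2.97 in male and female pups, or 8.51-fold and 7.83-fold.

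The adult change of Zdhhc2 was 1.59 ± 0.15 (log2 ± SE, 95% interval 1.27 to 1.90), a 3.01-fold higher level with an adjusted p of 9.14e-08 by limma and the smallest exact permutation p that 5 against 5 arrays allow, 0.00794. All 5 PBDE adults lay above all 5 controls, and the change ranked 22 of 14217 genes from the highest. On the log2 scale it was 51.4% of the male pup change. That share is a description only, since the gene was picked for its large pup change. Without each adult array in turn the adult change ran from 1.43 to 1.74. The fit pools the spread of all groups. The SD of Zdhhc2 was 0.37 in PBDE and 0.41 in control adults, against 0.11 to 0.20 in the pup groups. The SE, interval and adjusted p above therefore rest partly on the tighter pup groups. With only the 2 adult groups fitted, the limma adjusted p of Zdhhc2 was 0.00432, which still passed the threshold of 0.05. Control adults stood 0.73 above control male pups, and PBDE adults stood 0.77 below PBDE male pups (log2 difference -0.77). In these values age and array-name prefix cannot be told apart.

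**Figure D1:**
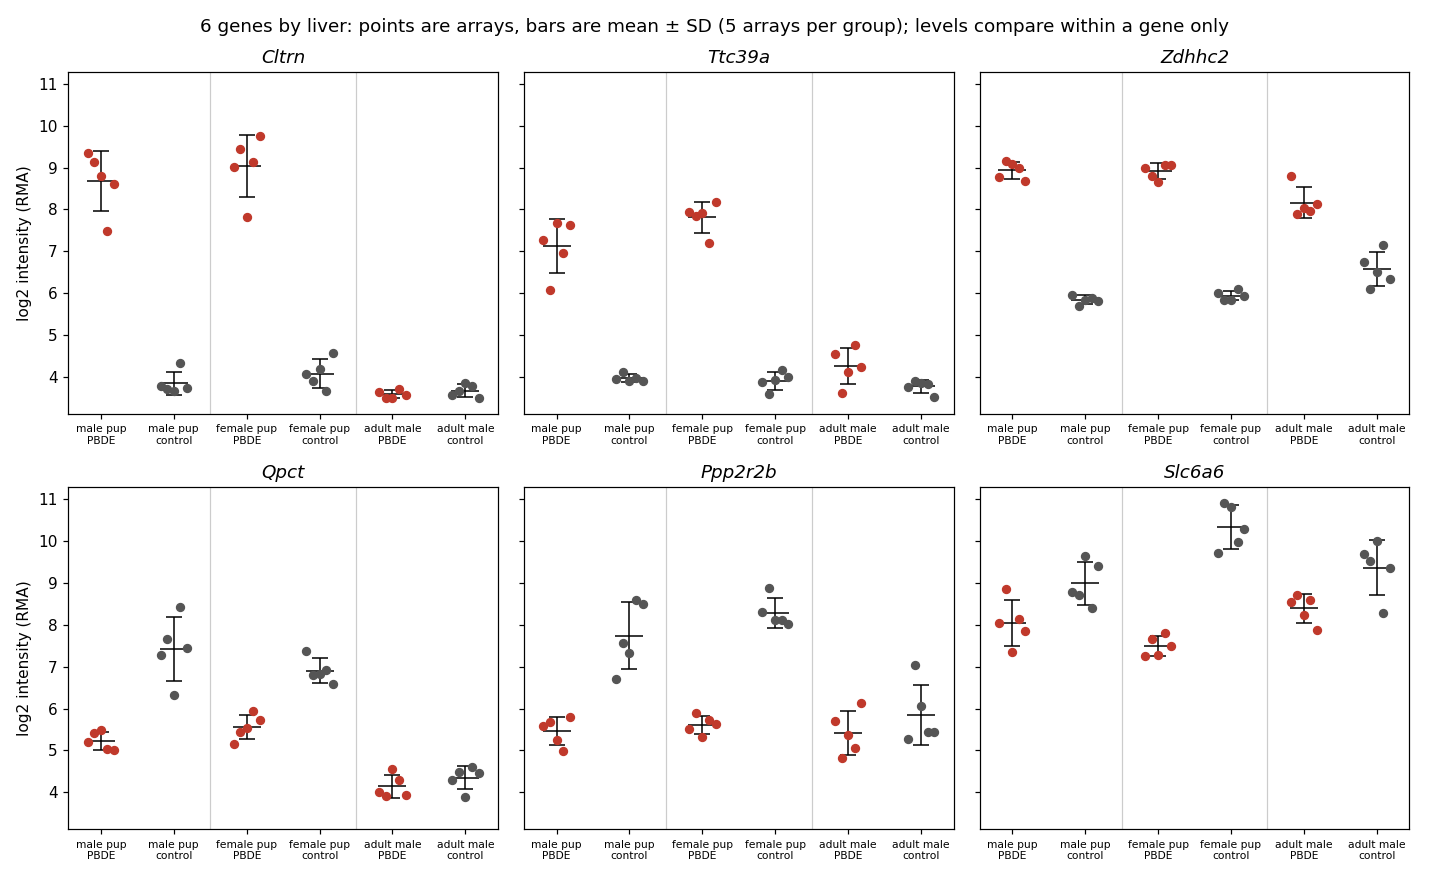
Log2 RMA intensity (vertical axis) of the 6 genes in the 6 liver groups, with a point for each array and bars for mean ± SD (5 arrays per group). Cltrn and Ttc39a are high in PBDE pups only, while Zdhhc2 is also high in PBDE adults, at 7.89 to 8.80 against 6.10 to 7.16 in control adults.

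Among all genes, groups that do not overlap and calls of the fit occurred at measurable background rates. In male pups 6.77% of genes had all PBDE arrays above all controls and 5.13% had all below, beside 3 and 2 of the 6 genes. In female pups these shares were 6.56% and 4.38%, beside 3 and 3 of the 6. Nothing is read from the pup counts, which the choice of genes fixed. In adults 2.44% of genes lay entirely above and 2.15% entirely below the controls, beside 1 and 0 of the 6. The limma test called 1.86% of genes higher and 2.04% lower in PBDE adults, beside 1 and 0 of the 6. Of the 8 genes at least 8-fold higher in both pup comparisons, Cltrn and Ttc39a among them, 2 rose in PBDE adults. Of the 8 genes at least 4-fold lower in both, Ppp2r2b among them, 0 passed in adults.

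**Figure D2:**
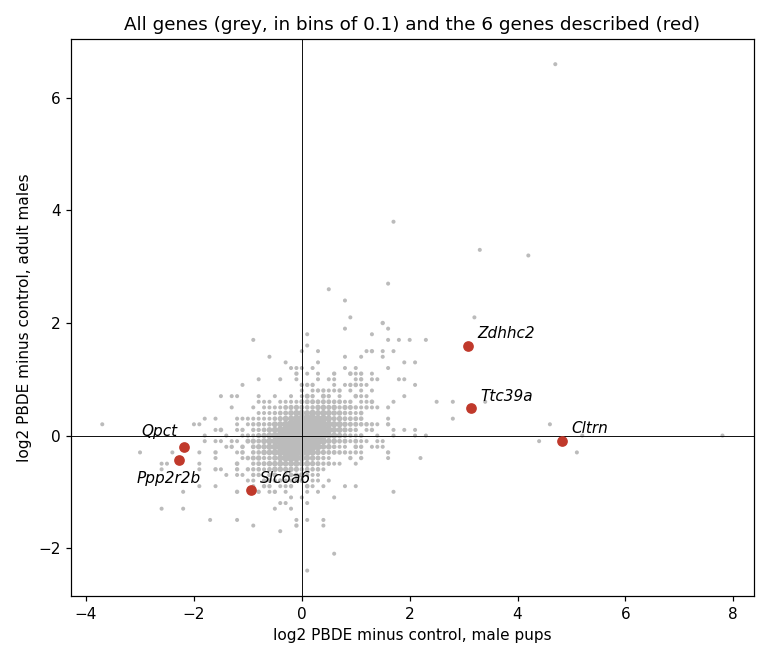
Log2 difference PBDE minus control in male pups (horizontal axis) against adult males (vertical axis) for all 14217 genes in bins of 0.1 (grey) and for the 6 genes (red). Cltrn lies at 4.82 in pups and -0.09 in adults, whereas Zdhhc2 lies at 3.09 and 1.59.

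Beside Zdhhc2, 27 palmitoylation enzymes of a list of 33 were measured. In male pups Zdhhc3, a palmitoyl transferase of the Golgi, and Ppt1, a lysosomal enzyme that removes palmitate, rose and 0 of 27 fell. In female pups Zdhhc3 and Abhd17a, which removes palmitate from membrane proteins, rose and 0 fell. No list gene was called in adults. The share of all genes called higher was 4.23% in male pups and 3.95% in female pups, and the share called lower was 3.26% and 2.18%. Zdhhc3 averaged 8.82 ± 0.14 in PBDE and 8.44 ± 0.04 in control male pups (log2 difference 0.38 ± 0.08, adjusted p = 0.00263), and 8.76 ± 0.06 in PBDE and 8.37 ± 0.05 in control female pups (0.39 ± 0.08, adjusted p = 0.00223). Its 5 PBDE arrays lay above its 5 controls in each sex, with a smaller change than that of Zdhhc2. Ppt1 differed by 0.30 in male pups (adjusted p = 0.00647) and Abhd17a by 0.48 in female pups (adjusted p = 0.00485). With the Gapdh covariate the calls of Zdhhc3 (0.31, adjusted p = 0.0237) and Abhd17a (0.37, adjusted p = 0.047) in female pups and of Ppt1 in male pups (adjusted p = 0.0109) were lost. Fitting only the 2 groups also ended the calls of Ppt1 in male pups (adjusted p = 0.0312) and Abhd17a in female pups (0.0107). Without PBDE male pup replicate 5 the adjusted p of Zdhhc3 in male pups was 0.0102. Ppt1 missed the threshold of 0.01 without any of the 5 control arrays or PBDE replicates 3, 4 and 5 (adjusted p from 0.0102 to 0.0275), and Abhd17a without control replicates 2, 3 or 4 or PBDE replicates 4 or 5 (0.0105 to 0.0233). The median log2 difference of the list was 0.04, 0.03 and 0.00 in male pups, female pups and adults. Zdhhc20, the nearest relative that could be read, had differences from -0.23 to 0.17 and was not called.

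Qpct, on chromosome 6, encodes glutaminyl cyclase, which converts an amino-terminal glutamine of secreted peptides and chemokines to pyroglutamate. Its single probe set read 5.21, 5.42, 5.49, 5.04 and 5.01 in PBDE male pups, against 7.28, 7.67, 6.32, 8.41 and 7.44 in control male pups. It read 5.16, 5.45, 5.53, 5.94 and 5.73 in PBDE female pups, against 7.38, 6.81, 6.83, 6.92 and 6.59 in control female pups. Adult males read 4.02, 3.91, 4.56, 4.29 and 3.95 with PBDE, against 4.30, 4.49, 3.90, 4.60 and 4.47 without it. PBDE pups lay below control pups without overlap in each sex, and all 10 adults lay below every pup, whatever the dose. Means were 5.23 ± 0.21 in PBDE and 7.42 ± 0.75 in control male pups, 5.56 ± 0.30 in PBDE and 6.91 ± 0.29 in control female pups, and 4.15 ± 0.27 in PBDE and 4.35 ± 0.27 in control adults. The log2 difference was -2.19 in male and -1.35 in female pups, or 4.56-fold and 2.54-fold lower with PBDE. Control adults minus control male pups was -3.07 on the log2 scale, a difference in which age and array-name prefix cannot be told apart. In adults PBDE differed from control by -0.21 ± 0.23 (SE, 95% interval -0.68 to 0.27, adjusted p = 0.722, exact permutation p = 0.286).

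Of 8 measured genes of pyroglutamate formation and removal, 1 rose and 0 fell in male pups, and 0 of 8 passed in female pups or adults. The share of all genes called higher in male pups was 4.23%, and 3.26% were called lower. The list gene that rose was Qpctl, the Golgi form of glutaminyl cyclase. It averaged 7.59 ± 0.18 in PBDE and 7.20 ± 0.17 in control male pups (log2 difference 0.39 ± 0.09, adjusted p = 0.00572), so in PBDE male pups Qpctl was higher where Qpct was lower. In female pups its difference was 0.23 (adjusted p = 0.154) and in adults 0.21 (adjusted p = 0.259). Its call in male pups was lost without control replicates 1, 3 or 4 or PBDE replicates 1, 3 or 5, at adjusted p-values from 0.0116 to 0.0259. It was also lost with only the 2 groups fitted (adjusted p = 0.0332) and with the Gapdh covariate (adjusted p = 0.0195). The list's median log2 difference was 0.17, 0.00 and 0.10.

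Ppp2r2b, on chromosome 18, encodes a regulatory B subunit of protein phosphatase 2A (PP2A) that is mostly known from brain. Its single probe set read 5.59, 5.69, 5.25, 4.98 and 5.80 in PBDE male pups, against 6.70, 7.57, 7.32, 8.59 and 8.49 in control male pups. It read 5.51, 5.90, 5.33, 5.72 and 5.63 in PBDE female pups, against 8.30, 8.88, 8.12, 8.10 and 8.01 in control female pups. Adult males read 5.70, 4.82, 5.36, 5.06 and 6.13 with PBDE, against 5.28, 7.03, 6.07, 5.45 and 5.43 without it. The 10 control pups were high and lay above all PBDE pups, and both adult groups overlapped each other. Means were 5.46 ± 0.34 in PBDE and 7.73 ± 0.80 in control male pups, 5.62 ± 0.22 in PBDE and 8.28 ± 0.35 in control female pups, and 5.41 ± 0.52 in PBDE and 5.85 ± 0.72 in control adults. The log2 difference was -2.27 and -2.66 in male and female pups, or 4.83-fold and 6.34-fold lower with PBDE. Adults minus male pups was -0.05 with PBDE and -1.88 in controls, and here too age and array-name prefix cannot be told apart. In adults PBDE differed from control by -0.44 ± 0.31 (SE, 95% interval -1.08 to 0.20, adjusted p = 0.527, exact permutation p = 0.325). Without control adult replicate 2, the highest control, the difference was -0.14.

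The measured PP2A subunits and regulators were 27 of 29 listed. In male pups 2 rose and 2 fell, in female pups 1 rose and 1 fell, and in adults 2 rose and 0 fell. Shares of all genes called higher were 4.23%, 3.95% and 1.86%, and called lower 3.26%, 2.18% and 2.04%, in the same order. Lcmt1, which methylates the catalytic subunit and thereby favours binding of B subunits, was the largest decrease of the list. It averaged 9.61 ± 0.35 in PBDE and 11.2 ± 0.26 in control male pups (log2 difference -1.56 ± 0.19, adjusted p = 1.66e-06), and 9.39 ± 0.27 in PBDE and 10.8 ± 0.51 in control female pups (-1.40 ± 0.19, adjusted p = 1.04e-05). Its groups did not overlap in either sex, and in adults its difference was -0.31 (adjusted p = 0.444). Arpp19, a small protein that inhibits PP2A when phosphorylated, rose by 0.70 in male pups (adjusted p = 7.63e-05), 0.68 in female pups (adjusted p = 1.38e-04) and 0.42 in adults (adjusted p = 0.0328). The adult call of Arpp19 was lost without any of 5 adult arrays (control replicates 2, 3 and 5, PBDE replicates 1 and 4), with adjusted p-values from 0.0513 to 0.107, and with the Gapdh covariate (0.0713). Ppp2r1b, a scaffold subunit, rose by 0.63 ± 0.13 in male pups (adjusted p = 0.00216) and by 0.76 ± 0.13 in adults (adjusted p = 0.00106), and in female pups its difference was 0.36 (adjusted p = 0.097). Without control male pup replicate 3 its adjusted p in male pups was 0.0104, and with only the 2 adult groups fitted its adult call was lost (adjusted p = 0.0664), as was that of Arpp19 (0.168). Ppp2r5e, a regulatory subunit of another family, fell by 0.34 in male pups (adjusted p = 0.00802), a call that was lost without any male pup array other than control replicate 1 (adjusted p from 0.011 to 0.0296). The call of Ppp2r5e was also lost with only the 2 groups fitted (0.0119). The B subunits Ppp2r2a and Ppp2r2d and the catalytic subunit Ppp2ca had differences between -0.24 and 0.23 and were not called. The list's median was 0.00, 0.01 and 0.05.

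Markers of other liver cells moved beside the 3 genes that were lower in PBDE pups. In male pups 2 of 10 Kupffer cell and macrophage markers fell (C1qa and Aif1) and 3 of 10 endothelial markers fell (Stab2, Lyve1 and Fcgr2b). Of all genes, 3.26% were called lower in male pups, 2.18% in female pups and 2.04% in adults. The mean level of the macrophage list was 8.70 to 8.90 in PBDE and 9.08 to 9.35 in control male pups, and that of the endothelial list 8.28 to 8.54 in PBDE and 8.61 to 8.89 in control male pups. Neither list overlapped between the male pup groups. In female pups the macrophage list was 8.78 to 9.20 in PBDE and 8.80 to 9.91 in control animals, with 0 of 10 called. The endothelial list was 8.43 to 8.59 in PBDE and 8.64 to 8.77 in control female pups, which did not overlap, with Fcgr2b called lower. In adults the macrophage list was 8.41 to 9.13 in PBDE and 8.90 to 9.57 in control animals, with Aif1 called lower, and 0 of 10 endothelial markers passed. Of 7 neuron and glia markers, Mbp fell in both pup comparisons. The list's level was 5.16 to 5.39 in PBDE and 5.13 to 5.45 in control male pups. It was 5.17 to 5.27 in PBDE and 5.31 to 5.46 in control female pups, which did not overlap. Of 12 stellate cell and fibroblast markers, Acta2 fell (-0.44) and Rgs5 rose (0.68) in male pups, Lrat (-0.77) and Pdgfrb (-0.44) fell in female pups, and Rgs5 rose (0.68) in adults. Their list's level overlapped between doses in each comparison. The part of these markers in the lower levels of Qpct, Ppp2r2b and Slc6a6 was not tested.

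Other markers moved beside the 3 genes that were higher in PBDE pups. Of all genes, 4.23% were called higher in male pups, 3.95% in female pups and 1.86% in adults. Epcam, 1 of 6 cholangiocyte markers, rose by 1.07, 0.92 and 1.13 in male pups, female pups and adults. The level of that list was 6.50 to 6.86 in PBDE and 6.45 to 6.63 in control male pups, 6.52 to 6.71 in PBDE and 6.28 to 6.65 in control female pups, and 6.34 to 6.53 in PBDE and 6.15 to 6.48 in control adults. Ccl5, 1 of 10 lymphocyte markers, rose by 1.14 in male and 1.02 in female pups, and Cd8a fell by 0.52 in adults. The lymphocyte list's level was 5.14 to 5.46 in PBDE and 5.02 to 5.28 in control male pups, 5.24 to 5.74 in PBDE and 5.10 to 5.45 in control female pups, and 5.21 to 5.53 in PBDE and 5.33 to 5.56 in control adults. These levels overlapped in each comparison. Among 11 hepatocyte markers Apoa2 rose in both pup comparisons, Cps1 fell in both and Ass1 fell in female pups. Of 7 erythroid and 6 adipose markers 0 passed in any comparison. The erythroid list's level was 8.70 to 8.82 in PBDE and 8.09 to 8.45 in control female pups, which did not overlap. The part of these markers in the higher levels of Cltrn, Ttc39a and Zdhhc2 was not tested.

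Slc6a6, on chromosome 4, encodes the sodium- and chloride-dependent taurine transporter. Of its 2 probe sets, the one with the higher mean read 8.03, 8.85, 7.34, 8.13 and 7.86 in PBDE male pups, against 8.78, 8.71, 9.63, 8.40 and 9.39 in control male pups. It read 7.26, 7.65, 7.27, 7.80 and 7.50 in PBDE female pups, against 9.71, 10.91, 10.80, 9.97 and 10.28 in control female pups. Adult males read 8.54, 8.71, 8.24, 8.58 and 7.87 with PBDE, against 9.68, 9.52, 9.99, 8.27 and 9.35 without it. Control female pups were the highest group, PBDE female pups were the lowest, and the groups overlapped in male pups and in adults. Means were 8.04 ± 0.55 in PBDE and 8.98 ± 0.51 in control male pups, 7.49 ± 0.24 in PBDE and 10.3 ± 0.52 in control female pups, and 8.39 ± 0.34 in PBDE and 9.36 ± 0.66 in control adults. The log2 difference was -0.94 in male pups and -2.84 in female pups, or 1.92-fold and 7.15-fold lower. Male and female pups thus differed by 1.90 in their log2 change, of which the controls made up the larger share. Male minus female was -1.35 in control pups, whereas it was 0.55 in PBDE pups. Control pups of both sexes carry the same array-name prefix, so the -1.35 lies within that prefix. The PBDE female pups carry another prefix than the PBDE male pups. The 0.55, which is part of the 1.90, therefore cannot be told apart from the prefix.

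The other probe set of Slc6a6 gave log2 differences of -1.08 in male pups and -3.17 in female pups. In adults it read 6.42, 6.85, 6.04, 6.43 and 5.54 with PBDE, against 7.93, 7.65, 7.95, 6.20 and 7.41 without it. Control adult replicate 4 was the low control on both probe sets, and it is the array that made the adult groups overlap. The adult difference was -0.98 ± 0.28 (SE, 95% interval -1.56 to -0.39, adjusted p = 0.0561, exact permutation p = 0.0317) on the first probe set and -1.17 ± 0.35 (adjusted p = 0.059, exact p = 0.0317) on the second. Neither passed the false discovery rate of 0.05, although the gene ranked 33 of 14217 from the lowest. Without control adult replicate 4 the difference on the first probe set was -1.25 and its adjusted p was 0.00764. Over all alternatives that adjusted p ran from 0.00764 to 0.171.

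**Figure D3:**
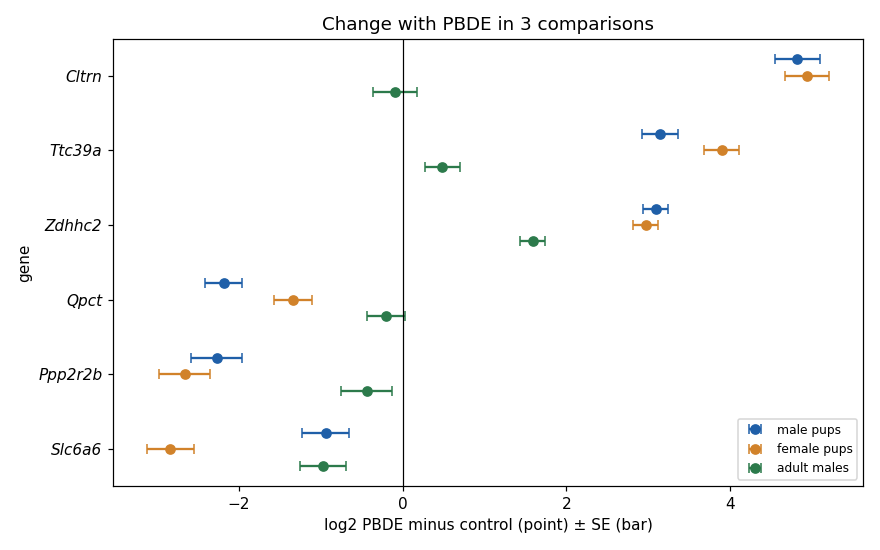
Log2 difference PBDE minus control (horizontal axis, point ± SE of the fit) of each of the 6 genes in male pups, female pups and adult males. The adult points of Cltrn and Qpct lie near 0 at -0.09 and -0.21, that of Zdhhc2 lies at 1.59, and Slc6a6 lies at -0.94, -2.84 and -0.98.

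Genes of taurine synthesis, conjugation and transport were lower beside Slc6a6 where they were called, with the exception of Slc16a6 in female pups. All 13 listed genes were measured: 2 fell and 0 rose in male pups, 4 fell and 1 rose in female pups, and 1 fell and 0 rose in adults. Over all genes, the shares called lower were 3.26% in male pups, 2.18% in female pups and 2.04% in adults. Those called higher were 4.23%, 3.95% and 1.86%. The median log2 difference of the list was -0.12, -0.16 and -0.13. Fmo1, a monooxygenase that oxidises hypotaurine to taurine, averaged 10.02 ± 0.75 in PBDE and 11.6 ± 0.13 in control male pups (log2 difference -1.56 ± 0.25, adjusted p = 1.05e-04). In female pups it averaged 9.73 ± 0.19 with PBDE and 11.6 ± 0.54 without it (-1.84 ± 0.25, adjusted p = 1.27e-05). Its groups did not overlap in any of the 3 comparisons, and the adult difference of -0.85 ± 0.25 had an adjusted p of 0.06, or 0.0463 without control adult replicate 1. With each adult array left out in turn, that adjusted p ran from 0.0463 to 0.159. Slc27a5, the ligase that activates bile acids before taurine is attached, fell by 0.64 ± 0.09 in male pups (adjusted p = 1.63e-05) and by 0.57 ± 0.09 in female pups (adjusted p = 9.36e-05).

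Csad, the decarboxylase that makes hypotaurine from cysteine sulfinate, averaged 10.8 ± 0.45 in PBDE and 11.8 ± 0.28 in control female pups (log2 difference -0.92 ± 0.19, adjusted p = 0.00205). In male pups its difference was -0.72 (adjusted p = 0.0137), which missed the threshold. It passed at 0.0021 without PBDE male pup replicate 1, at 7.81e-04 with the Gapdh covariate (-0.91) and at 0.00893 with the filter on low values. Under the other alternatives its adjusted p in male pups stayed above the threshold. With each male pup array left out in turn, that adjusted p ran from 0.0021 to 0.057. The female call was lost without PBDE female pup replicate 1 (adjusted p = 0.0104) and with only the 2 groups fitted (0.012). Slc6a13, a transporter of GABA and taurine in hepatocytes, averaged 9.77 ± 0.21 in PBDE and 10.8 ± 0.20 in control female pups (-1.06 ± 0.19, adjusted p = 4.83e-04). In adults it averaged 9.997 ± 0.51 with PBDE and 10.8 ± 0.09 without it (-0.84 ± 0.19, adjusted p = 0.0125), and without PBDE adult replicate 5 the difference was -0.64 at an adjusted p of 0.0521. The adult call was also lost with only the 2 adult groups fitted (adjusted p = 0.0742). In male pups the difference of Slc6a13 was -0.73 (adjusted p = 0.0127), which missed the threshold. It passed when PBDE replicate 2, PBDE replicate 4 or control replicate 4 was left out, at 0.00654, 0.00478 and 0.00494. Leaving out other male pup arrays gave an adjusted p of up to 0.0489. Slc16a6, of the monocarboxylate transporter family, rose in female pups by 0.71 ± 0.13 (adjusted p = 6.89e-04). Cdo1, which starts taurine synthesis from cysteine, and Baat, which attaches taurine to bile acids, had differences between -0.24 and -0.10 and were not called; both lie near the top of the intensity scale. Of 5 osmolyte and tonicity genes, a class that includes known partners of the taurine transporter in cell volume control, 0 passed in any comparison.

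**Figure D4:**
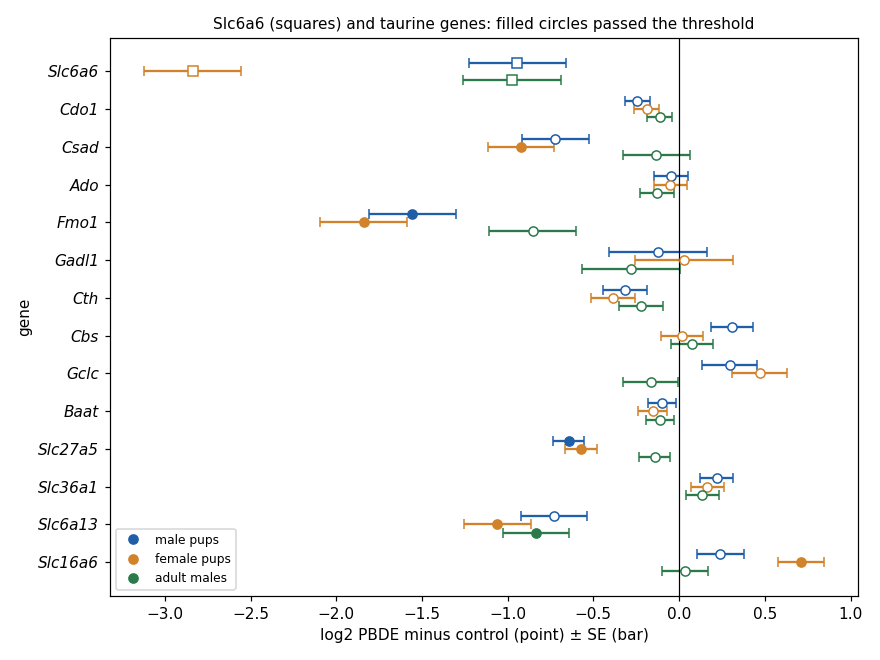
Log2 difference PBDE minus control (horizontal axis, point ± SE) of Slc6a6 (squares) and 13 taurine genes (circles, filled where the threshold was passed) in male pups, female pups and adult males. Fmo1 lies at -1.56, -1.84 and -0.85, while Cdo1 and Baat lie between -0.24 and -0.10.

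Over the 7 lists together, 88 of 104 genes were measured. In male pups 5 rose and 4 fell, in female pups 4 rose and 5 fell, and in adults 2 rose and 1 fell. As shares of 88 genes these were 5.68% and 4.55% in male pups, 4.55% and 5.68% in female pups, and 2.27% and 1.14% in adults, to be read beside the shares of all genes given above. Without control male pup replicate 3 the male count was 5 instead of 9. The lists were written around the 6 genes.

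For each of the 6 genes, the 3 genes with the most similar pattern were found by Pearson's r over the 30 arrays, which share the 6 groups. Cltrn was most like Grk5 (r = 0.945), Ccdc85c (0.939) and Chek1 (0.932). Ttc39a was most like Gsta4 (0.947), Ccdc85c (0.928) and Chek1 (0.928), so Ccdc85c and Chek1 stood beside both genes. Zdhhc2 was most like Cltb (0.969), Zwint (0.95) and Bnip3l (0.943). All 3 genes beside Zdhhc2 were also higher in PBDE adults, Cltb by 0.60, Zwint by 0.64 and Bnip3l by 0.26. The adult arrays entered the correlation that chose the similar genes, so their adult differences are no separate test. Of the genes beside Cltrn and Ttc39a, Gsta4, a glutathione transferase, was higher in PBDE adults by 0.59, whereas Grk5 differed by 0.02 and Chek1 by -0.23. Qpct was most like Srpx (0.95), Qsox1 (0.949) and Mfge8 (0.949). Ppp2r2b was most like Hnrnpa0 (0.888), Mtarc2 (0.882) and Nsmf (0.877), and Slc6a6 most like Sult1a1 (0.869), Mreg (0.852) and Gls2 (0.844). None of the genes beside Qpct, Ppp2r2b and Slc6a6 was called in adults. Shared group differences alone can give such correlations, which are a description.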

How the data were processed

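RNA from 30 livers was hybridised to Affymetrix rat genome arrays after 2-cycle labelling of 50 ng of total RNA, per the labels' protocols. The deposited log2 values are RMA output of the authors, per the submitters' processing notes, and the program and version behind it were not stated there. There were 31099 probe sets in the table and 0 unused value columns. After 57 control probe sets were set aside, 31042 were tested. A platform table, with symbols updated through RefSeq, tied 20826 probe sets to 1 gene, 436 to several and 9780 to none. Each of 14217 genes was represented by the probe set naming it alone with the highest mean. Levels of different probe sets are not comparable, RMA shrinks differences near the floor and the top of its scale, and the number of arrays limits the precision.

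The model was linear, with 1 mean for each of the 6 groups, and used limma 3.58.1 under R 4.3.3 on the 30 arrays together (eBayes, Benjamini-Hochberg over 31042 probe sets, two-sided); it was tested on simulated data. Following the series design, where the authors used R/maanova, the false discovery rate was 0.01 in pups and 0.05 in adults. Exact permutation tests ran over 252 regroupings of 5 against 5 arrays. Adjusted p-values, standard errors and intervals come from limma, and in this fit they pool the spread of all 6 groups. The scripts used Python 3.11.15.

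The 6 genes and the 7 pathway and 12 marker lists were chosen with earlier results of these data known. Named genes were the 6 genes, list genes past a threshold (up to 6 a list), the closest relatives or partners of each gene, the 3 most similar genes by correlation, and Cyp1a1. Alternatives were the 2 groups fitted alone, a replicate block, repeated quantile normalization, other variance models, a filter on low values, a Gapdh covariate, the mean of all probe sets, and leaving out each array. Each array is a different animal. Within the array names, each group also holds consecutive numbers, and array order and group cannot be told apart. Sequences are RefSeq's, on GRCr8. Genes without a representative probe set were not analysed here.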

Additional observations from a re-analysis of the deposited data

Results flagged for a closer look

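Of 42 groups of 5 arrays examined, 2 held an array far from the others of its group, where chance marks about 1 in 20. For Cltrn, control male pup replicate 4 read 4.34, and the next control male pup read 3.79, a gap of 0.807 of the group's range. All PBDE male pups were still 7.49 or higher. For Zdhhc2, PBDE adult replicate 1 read 8.80, and the next PBDE adult read 8.12, a gap of 0.744 of the range. Without that array the adult difference of Zdhhc2 was 1.43.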

How the results depend on the processing

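Of 935 values recomputed under alternatives, 865 were counted as kept, 51 lost a call, 14 gained one, 5 counts moved further and none changed direction. Kept means the same direction and side of the threshold, or within 1.5 times for counts. For the 6 genes in pups no threshold was applied, and kept means a move smaller than the gene's pooled SD within groups. With only the 2 adult groups fitted, probe sets called in adults were 269 (144 higher, 125 lower) instead of 924 (414 higher, 510 lower), and the 3 called list genes (Arpp19, Ppp2r1b, Slc6a13) were all lost while 1 other, Fmo1, passed (adjusted p = 0.0478); with the filter on low values list genes were 6 (3 higher, 3 lower). The filter kept Zdhhc2, Ppp2r2b and Slc6a6 of the 6 genes. The adult difference of Slc6a6 passed the threshold with the filter (-0.98, adjusted p = 0.0386) and as the mean of its probe sets (-1.07, adjusted p = 0.0438). Leaving out each array in turn gave 5 to 9 called list genes in male pups (5 without control replicate 3), 597 to 1032 called probe sets in adults (597 without PBDE replicate 4), and -1.25 to -0.82 for Slc6a6 in adults. The cause was not tested.

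The replicate numbers do not pair the animals, and the mean residual correlation of same-numbered arrays was 0.00417 against -9.06e-04 for others, with 18 of 75 pairs above 0.1. With the replicate block, adults had 961 called probe sets, Zdhhc2 differed by 1.59 (adjusted p = 1.2e-07) and Slc6a6 by -0.98 (adjusted p = 0.0541); Slc6a13 in male pups gained a call (adjusted p = 0.00724). Signal near the array floor limits Cltrn, Ttc39a and Qpct in adults, where a small difference was not detectable.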

Other observations

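The nearest measured genes on each side of the 6 genes, in RefSeq order on GRCr8, were chosen by position and stand outside the rule for named genes. Of 12 neighbours, 2 were called in each comparison. Over all genes, 4.23% were called higher and 3.26% lower in male pups, 3.95% and 2.18% in female pups, and 1.86% and 2.04% in adults. Pir, which encodes pirin, an iron-binding nuclear protein, lies beside Cltrn on chromosome X and rose in all 3 comparisons. Its log2 difference was 1.58 ± 0.17 in male pups (adjusted p = 1.44e-07), 1.38 ± 0.17 in female pups (adjusted p = 1.72e-06) and 1.16 ± 0.17 in adults (adjusted p = 8.67e-05), the last where Cltrn differed by -0.09. Car5b, a mitochondrial carbonic anhydrase on the other side of Cltrn, fell by 0.49 in adults (adjusted p = 0.0126). Beside Zdhhc2, Cnot7, a deadenylase subunit, fell by 0.39 in male pups (adjusted p = 0.0022) and by 0.42 in female pups (adjusted p = 0.0014), the opposite direction to Zdhhc2. With only the 2 groups fitted, the female call of Cnot7 was lost at 0.0229. The neighbours of Ttc39a, Qpct, Ppp2r2b and Slc6a6 were not called in any comparison.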
